A study of Mus musculus with 26 samples.

Results

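The 8 chemokine receptor genes Ccr2, Ccr4, Ccr6, Ccr8, Ccr9, Cxcr3, Cxcr4 and Cxcr6 were followed through thymic NKT cell maturation. They were chosen by name, as 8 of the 23267 gene symbols in the files, and all 8 were among the 11663 genes that entered the tests. Ccr6 entered mainly through its levels in DN1eP and NKT-2, since it was under 1 FPKM in most other libraries. FPKM (fragments mapped to a gene, scaled for transcript length and library size) is a level, so levels can be compared between genes. The 26 libraries are bulk RNA-seq of sorted thymocytes from C57BL/6 mice of 6 to 8 weeks. NKT-1 (5 libraries), NKT-2 (7) and NKT-3 (6) are thymic NKT cells bound by αGalCer-loaded CD1d dimers and positive for TCRβ. They were sorted as CD44- NK1.1-, CD44+ NK1.1- and CD44+ NK1.1+ cells, so the numbers name surface stages and not the NKT1, NKT2 and NKT17 lineages. DN1eP (4 libraries) are thymocytes without the surface Vα14Jα18 receptor, gated as CD44+, CD5+, CD27+ and CXCR3+ with low CD24, and lacking lineage markers, CD25 and Ly108. DN1eP-NKT (4 libraries) are the Vα14Jα18-positive cells obtained from DN1eP after 10 days on OP9/Dll-1 stroma with IL-2 and IL-7, each at 5 ng/ml. The comparisons ask which receptors are gained or lost along the stages, and whether the cultured cells carry the receptor set of a single stage. Whether the libraries of a group are of different mice is not given in the labels, so the p-values cover the spread of these libraries alone, which may be technical.

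Chemokine receptors are G-protein-coupled receptors that steer cells along gradients of chemokines, small secreted proteins. In the thymus CCR9 binds CCL25 and CCR4 binds CCL17 and CCL22, made by thymic epithelium and dendritic cells, and both receptors guide thymocytes between cortex and medulla. CXCR3 (for CXCL9 and CXCL10) and CXCR6 (for CXCL16) are carried by effector-type and tissue-resident lymphocytes, and CXCR6 is a known receptor of NKT cells in the liver. CCR2 binds CCL2, CCR6 binds CCL20 and marks IL-17-producing T cells, CCR8 binds CCL1, and CXCR4 binds the stromal chemokine CXCL12.

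The promoters shown are those of the receptors with the largest falls along the stages (Ccr9 and Ccr4) and of a pair that rose (Cxcr3 and Ccr8). Each is the 250 bases before the gene's start, 5′ to 3′ on the gene's strand, from RefSeq on GRCm38.p6. Capitals mark matches to short motifs searched on both strands: TCACAC for T-box factors, AGGTCA for ROR factors (RORE), AGATAA for factors of the GATA family, and TGTGGT for Runx factors.
Ccr9, chr9:123766961-123767210, plus strand: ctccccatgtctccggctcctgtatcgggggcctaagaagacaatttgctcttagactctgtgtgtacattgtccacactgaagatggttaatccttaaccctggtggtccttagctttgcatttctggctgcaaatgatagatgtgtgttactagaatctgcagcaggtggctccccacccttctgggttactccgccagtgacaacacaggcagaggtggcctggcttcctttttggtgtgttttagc
Ccr4, chr9:114496545-114496794, minus strand: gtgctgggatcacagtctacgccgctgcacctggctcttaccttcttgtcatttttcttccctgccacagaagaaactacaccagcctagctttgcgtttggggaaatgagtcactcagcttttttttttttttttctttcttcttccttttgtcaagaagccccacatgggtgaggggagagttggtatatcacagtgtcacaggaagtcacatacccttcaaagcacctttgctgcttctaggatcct
Cxcr3, chrX:101734148-101734397, minus strand: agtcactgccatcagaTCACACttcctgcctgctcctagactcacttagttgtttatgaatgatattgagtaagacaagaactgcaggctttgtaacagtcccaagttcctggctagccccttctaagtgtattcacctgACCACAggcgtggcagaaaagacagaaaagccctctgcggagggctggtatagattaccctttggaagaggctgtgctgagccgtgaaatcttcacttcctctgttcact
Ccr8, chr9:120091883-120092132, plus strand: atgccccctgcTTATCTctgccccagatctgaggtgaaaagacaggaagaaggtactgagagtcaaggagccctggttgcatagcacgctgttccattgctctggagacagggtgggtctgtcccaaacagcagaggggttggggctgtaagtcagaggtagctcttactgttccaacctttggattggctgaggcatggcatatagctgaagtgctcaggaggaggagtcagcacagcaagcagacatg
The Cxcr3 window held a T-box match, 234 to 229 bases before the start, and a Runx match on the other strand, 110 to 105 bases before it. The Ccr8 window held a GATA match on the other strand, 239 to 234 bases before the start. No match was found in the Ccr9, Ccr4 or Cxcr4 window, whereas Cxcr6 held Runx, Ccr2 held GATA, and the 2 Ccr6 windows held RORE and GATA. Such short motifs are common: of 32851 windows of 250 bases, 12.29% held the T-box letters, 14.02% the RORE, 9.99% the GATA and 14.05% the Runx letters. In the files' own build, mm9, Ccr9 lies at chr9:123676329-123692575, Cxcr6 at chr9:123715595-123720872 and Ccr2 at chr9:124016922-124023879, close together on chromosome 9. Ccr8 (chr9:120001251-120004024) and Ccr4 (chr9:114399434-114405662) lie elsewhere on that chromosome. Ccr6 is at chr17:8428908-8449994, Cxcr3 at chrX:98926875-98929486 and Cxcr4 at chr1:130484776-130488876. The 7 receptors other than Ccr2 share no 50-base word with the receptors searched. Cxcr6 lies within the interval of Fyco1, and no strand use is given in the sources used here, but Fyco1 stood at only 1.49 to 6.41 FPKM in thymic libraries.

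The libraries fall into 2 sets of 13 that do not follow the stage, told apart by the median FPKM of expressed genes (12.97 to 13.85 in the higher-median set, 7.58 to 9.81 in the lower). The higher-median set holds all 4 DN1eP-NKT, 2 NKT-1, 4 NKT-2 and 3 NKT-3 libraries. The lower-median set holds all 4 DN1eP libraries and 3 of each stage. The labels name 2 library kits without saying which library had which. All tests therefore carry library set as a term in a limma fit of log2(FPKM + 1), with Benjamini-Hochberg adjustment over all 11663 genes at 0.05. The deposited 95% intervals of receptors at 10 FPKM or more had half-widths of 0.85% to 39.24% of their middle (median 9.74%). The sort markers followed the labels: Cd44 was higher by 3.22 ± 0.22 (SE, log2) in NKT-2 than in NKT-1, and Klrb1c, the gene of NK1.1, stood at 493.5 to 503.3 and 439.9 to 562.9 FPKM in the NKT-3 libraries of the 2 sets. NKT-2 library 6 and NKT-3 library 5 stand apart in several sums of other cell markers. Over the 6 genes listed for dendritic cells the sums were 1861 and 420.5 FPKM, against 5.17 to 112.6 and 0.57 to 6.33 in the others of their stage. Only 2 of the 6, Cd74 and H2-Aa, reached 1 FPKM in either library, so these sums do not name dendritic cells. The myeloid sums (176.7 and 91.68 FPKM) and B cell sums (143.4 and 44.27) of these libraries were also the highest of their stage. DN1eP library 1 also stands apart, as given with the DN1eP values.

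Between NKT-1 and NKT-3 receptor levels shifted: Ccr9 and Ccr4 fell steeply and Ccr2 slightly, while Cxcr3, Ccr8 and Cxcr6, already present in NKT-1, rose. In bulk RNA, fewer cells carrying a transcript and less of it per cell cannot be told apart. From NKT-1 to NKT-2, 0 of 8 receptors passed limma's test, in a comparison where 0.797% of all genes were called. At an unadjusted p under 0.05 there were 5 of the 8. The share of all genes at that limit was not counted, so the 5 have no background beside them. From NKT-2 to NKT-3, 4 fell and 2 rose, where 18.6% of all genes were called lower and 10.9% higher. From NKT-1 to NKT-3, 3 fell and 3 rose, against 27.4% and 10.4%. The median difference over the 8 receptors from NKT-1 to NKT-3 was 0.75 (log2), beside -0.17 over all tested genes. The share of higher calls among all called genes moved with scaling, from 27.57% to 42.86% (upper-quartile) and 47.02% (quantile) for NKT-3 minus NKT-1, from 36.82% to 48.28% (quantile) for NKT-3 minus NKT-2, and from 63.44% to 75.89% and 81.42% for NKT-2 minus NKT-1, but no receptor that was called changed direction under either. With on set as every library of a group at 10 FPKM or more and off as every library under 1 FPKM, Ccr2, Ccr8, Cxcr3 and Cxcr6 were on in all 5 groups. Ccr4 and Ccr9 were on in NKT-1 and neither on nor off in NKT-3, and Ccr6 was off in NKT-1.

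**Figure D1:**
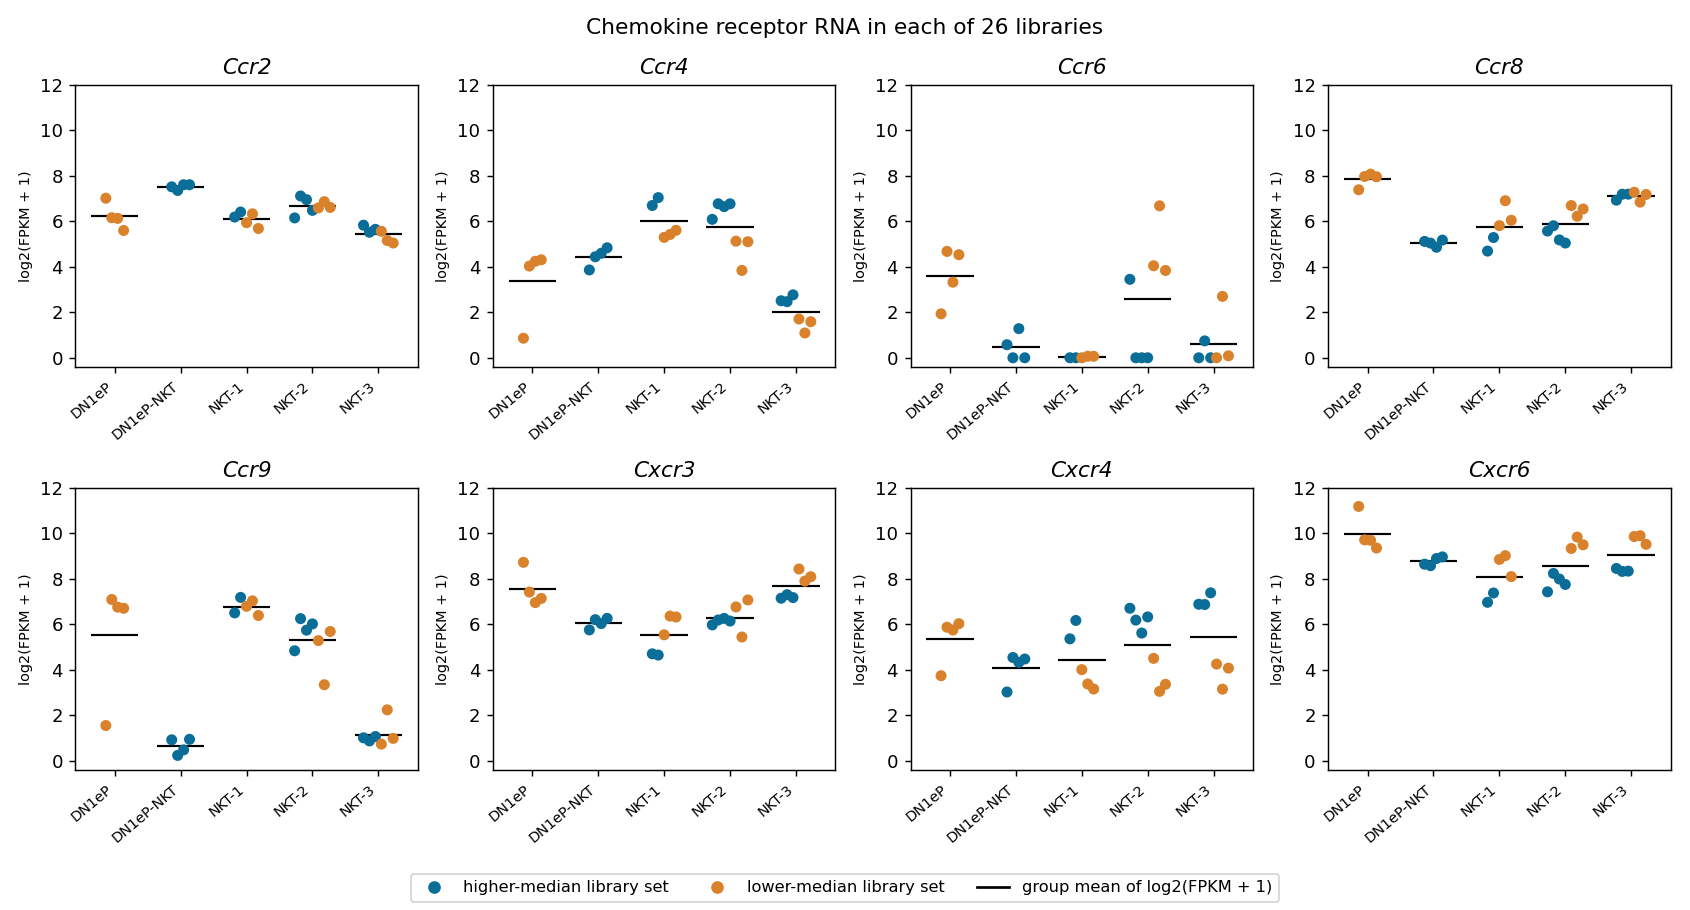
Each point is 1 library, with its level as log2(FPKM + 1) on the vertical axis, by group, coloured by library set, and the line is the group mean. Ccr9 and Ccr4 drop in NKT-3, and Cxcr3 and Ccr8 are highest among thymic stages there. Ccr4, Cxcr4 and Cxcr6 form 2 bands within each thymic stage, 1 for each library set.

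Ccr9, the receptor for the thymic and gut chemokine CCL25, was high in NKT-1, lower in NKT-2 and close to absent in NKT-3. In NKT-1 it stood at 89.8, 145 (higher-median libraries), 110, 130.1 and 82.8 FPKM (lower-median). In NKT-2 it ranged from 9.16 to 75.1 FPKM with a median of 50.5, and in NKT-3 from 0.66 to 3.72 with a median of 0.996. The 3 stages did not overlap: every NKT-1 library was above every NKT-2 library, and every NKT-2 library above every NKT-3 library. NKT-3 minus NKT-2 was -4.14 ± 0.66 (SE, limma adjusted p = 5.55e-05) and NKT-3 minus NKT-1 was -5.66 ± 0.72 (adjusted p = 2.36e-06). With library 6 of NKT-2 and library 5 of NKT-3 left out, the first was -4.69 (adjusted p = 2.71e-05). NKT-2 minus NKT-1 was -1.52 ± 0.70 with adjusted p = 0.445. Within the higher-median set the differences were -1.13, -4.73 and -5.86 for NKT-2 minus NKT-1, NKT-3 minus NKT-2 and NKT-3 minus NKT-1. Within the lower-median set they were -1.97, -3.45 and -5.42, and the middle of these did not pass the test there (adjusted p = 0.194). The lowest NKT-2 value and the highest NKT-3 value are those of library 6 and library 5, which carry the other cell markers given above.

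Ccr4, which binds CCL17 and CCL22, did not pass the test between NKT-1 and NKT-2 and fell at NKT-3. In higher-median libraries it was at 103 and 131 FPKM in NKT-1, at 67.1, 108, 99.2 and 108 in NKT-2, and at 4.68, 4.53 and 5.81 in NKT-3. In lower-median libraries it was at 38.3, 41.9 and 47.7 FPKM in NKT-1, at 34.0, 13.3 and 33.4 in NKT-2, and at 2.26, 1.13 and 2.003 in NKT-3. No NKT-3 library reached the lowest library of either earlier stage. The difference was -3.64 ± 0.40 from NKT-2 (limma adjusted p = 1.62e-07) and -4.14 ± 0.43 from NKT-1 (adjusted p = 5.96e-08), and it was called within each set. NKT-2 minus NKT-1 was -0.50 (95% interval -1.37 to 0.36, adjusted p = 0.696).

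Ccr2, the receptor for CCL2, was lower in NKT-3 than in both earlier stages, and NKT-2 minus NKT-1 was 0.53 ± 0.19 and not called (adjusted p = 0.272). It was at 72.0, 84.0, 60.4, 79.5 and 50.5 FPKM in NKT-1. NKT-2 ranged from 70.0 to 138 FPKM (median 96.8) and NKT-3 from 32.1 to 56.0 (median 45.6). NKT-2 and NKT-3 did not overlap, whereas NKT-1 overlapped both. From NKT-2 to NKT-3 it fell by 1.204 ± 0.18 (limma adjusted p = 7.80e-06). The difference of NKT-3 from NKT-1, -0.67 ± 0.20 (adjusted p = 0.00835), did not pass with upper-quartile scaling (-0.47, adjusted p = 0.0706), quantile normalization (-0.42, adjusted p = 0.0791) or no filter (adjusted p = 0.0561), nor within the higher-median or the lower-median set (-0.63 and -0.73, adjusted p = 0.0642 and 0.104).

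Cxcr3, the receptor for the interferon-induced chemokines CXCL9 and CXCL10, rose along the stages. In higher-median libraries it was at 25.1 and 24.1 FPKM in NKT-1, at 61.9, 72.1, 75.8 and 69.8 in NKT-2, and at 141, 157 and 144 in NKT-3. In lower-median libraries it was at 45.6, 81.4 and 79.1 FPKM in NKT-1, at 108, 42.5 and 134 in NKT-2, and at 345, 238 and 272 in NKT-3. In the first set the 3 stages formed 3 separate steps, while in the second NKT-1 and NKT-2 overlapped. NKT-3 was higher by 1.35 ± 0.26 than NKT-2 (limma adjusted p = 0.000217) and by 2.24 ± 0.28 than NKT-1 (adjusted p = 4.91e-07). NKT-2 minus NKT-1 was 0.89 ± 0.28 with adjusted p = 0.162, and it was called without NKT-2 library 6 (1.16, adjusted p = 0.00936) in the higher-median libraries alone (1.47, adjusted p = 0.000892), with quantile normalization (1.06, adjusted p = 0.0212) and with array weights (1.03, adjusted p = 0.00928).

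Ccr8, the receptor for CCL1, rose at NKT-3. In higher-median libraries it was at 24.9 and 38.1 FPKM in NKT-1, at 46.6, 55.0, 35.3 and 32.1 in NKT-2, and at 121, 145 and 146 in NKT-3. In lower-median libraries it was at 55.2, 119 and 65.2 FPKM in NKT-1, at 103, 73.7 and 92.3 in NKT-2, and at 154, 114 and 144 in NKT-3. The NKT-3 libraries lay at 114 to 154 FPKM in both sets, above all NKT-2 libraries, and the sets differed in the earlier stages. NKT-3 was higher by 1.18 ± 0.21 than NKT-2 (limma adjusted p = 6.24e-05) and by 1.43 ± 0.23 than NKT-1 (adjusted p = 1.11e-05). The rise from NKT-2 was 1.70 in the higher-median libraries and 0.62, not called, in the lower-median ones (adjusted p = 0.236), and the difference between these gave adjusted p = 0.312.

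Cxcr6, the receptor for CXCL16 on tissue-resident lymphocytes, had the highest level of the 8 in all 18 thymic libraries and rose from NKT-1 to NKT-3. In higher-median libraries it was at 124 and 166 FPKM in NKT-1, at 171, 301, 254 and 215 in NKT-2, and at 351, 320.1 and 323 in NKT-3. In lower-median libraries it was at 462, 519 and 274 FPKM in NKT-1, at 646, 915 and 722 in NKT-2, and at 930.1, 954 and 733 in NKT-3. Within each set NKT-3 lay wholly above NKT-1, but over all libraries the stages overlapped. NKT-3 minus NKT-1 was 1.16 ± 0.24 (limma adjusted p = 0.000275), with 1.201 within the higher-median set and 1.101, not called (adjusted p = 0.0607), within the other, and without the set term it was 1.002 (adjusted p = 0.154). NKT-2 minus NKT-1 was 0.78 (95% interval 0.31 to 1.25, adjusted p = 0.128) and NKT-3 minus NKT-2 was 0.37 (-0.07 to 0.82, adjusted p = 0.204).

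Cxcr4, the receptor for CXCL12, differed more between library sets than between stages. In higher-median libraries it was at 40.1 and 71.1 FPKM in NKT-1, at 103, 71.8, 48.1 and 79.3 in NKT-2, and at 117, 116 and 166 in NKT-3. In lower-median libraries it was at 15.1, 9.40 and 7.92 FPKM in NKT-1, at 21.7, 7.29 and 9.28 in NKT-2, and at 18.1, 7.87 and 15.8 in NKT-3. NKT-3 stood apart from NKT-1 and NKT-2 in the higher-median set and overlapped both in the other. NKT-3 minus NKT-1 was 0.75 (95% interval -0.05 to 1.55, limma adjusted p = 0.135), and NKT-3 minus NKT-2 was 0.52 (-0.21 to 1.25, adjusted p = 0.293). NKT-3 minus NKT-1 passed in the higher-median libraries alone (1.28, adjusted p = 0.0359), with upper-quartile scaling (0.94, adjusted p = 0.0397), quantile normalization (1.02, adjusted p = 0.0348), array weights (0.80, adjusted p = 0.043) and only the compared groups (0.74, adjusted p = 0.0395), and in the lower-median libraries alone it was 0.31 (adjusted p = 0.787).

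Ccr6, the receptor for CCL20, was detected in only some NKT-2 libraries. It was listed at 0 or at most 0.047 FPKM in the 5 NKT-1 libraries. Its NKT-2 levels were 9.93, 0, 0 and 0 FPKM in libraries 1 to 4 (higher-median) and 15.5, 102 and 13.3 FPKM in libraries 5 to 7 (lower-median). In NKT-3 it was at 0, 0.67, 0, 0, 5.499 and 0.061 FPKM. The 0 values do not all weigh the same: 3 fragments would give 0.12 to 0.15 FPKM in libraries at 0 of about 15.1 to 19.19 M fragments and 0.93 to 2.09 FPKM in libraries at 0 of about 1.11 to 2.5 M, by the depth read from the steps of low values. All 4 NKT-2 libraries above 1 FPKM, library 1 and libraries 5 to 7, are of the greater depth. NKT-3 minus NKT-2 was -2.11 ± 0.77 (limma adjusted p = 0.042), and the call was lost in 8 of the 13 fits that left out a single NKT-2 or NKT-3 library (adjusted p up to 0.0959 without NKT-2 library 6). It was also lost with NKT-2 library 6 and NKT-3 library 5 both left out (-1.79, adjusted p = 0.0537). NKT-2 minus NKT-1 was 2.86 (95% interval 1.17 to 4.54, adjusted p = 0.13). The highest value in NKT-2 (library 6) and in NKT-3 (library 5) came with summed B cell markers of 143.4 and 44.27 FPKM, against 0.80 to 11.6 and 1.82 to 4.15 in the others of their stage, with 6 of 8 markers at 1 FPKM or more in each. In library 6 no B cell marker was at 0, and in library 5 Pax5 and Ebf1 were. Library 6 also held 269.3 FPKM of the 4 genes listed as gamma-delta T cell markers, all 4 at 1 FPKM or more, against 30.9 to 76.8 in the other NKT-2 libraries. One of the 4, 5830411N06Rik, is also among the 2 genes most like Ccr6 given below. Whether these transcripts came from other cells or from the sorted NKT cells themselves was not tested, nor was the part of other cells in the Ccr6 level.

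**Figure D2:**
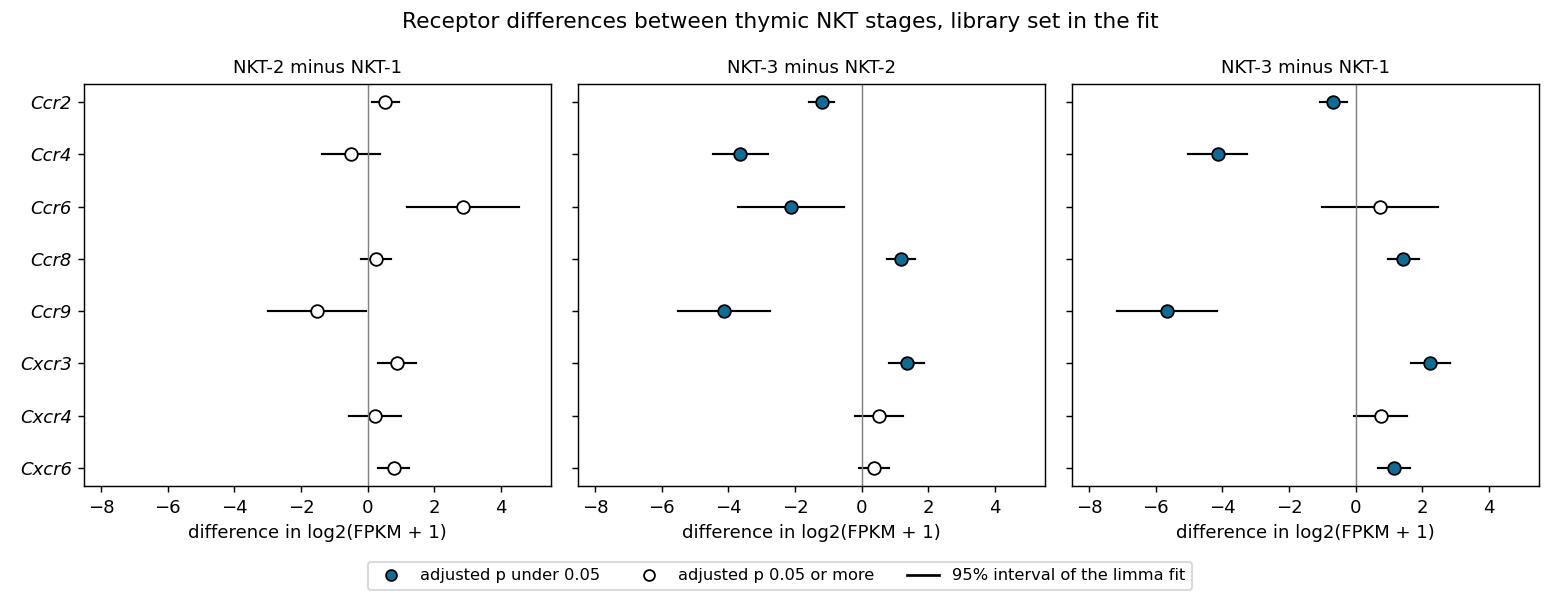
Points are the limma differences in log2(FPKM + 1) between thymic stages on the horizontal axis for each receptor, with 95% intervals, filled where the adjusted p is under 0.05. No receptor is filled for NKT-2 minus NKT-1, and Ccr9 and Ccr4 lie farthest to the left in both NKT-3 comparisons.

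Across the 18 thymic libraries, with the mean of each set removed, Ccr4 and Ccr9 varied together (Pearson r = 0.97) and Ccr8 with Cxcr3 (r = 0.80), while Ccr4 and Ccr8 ran opposite (r = -0.83). These correlations describe libraries that share 3 stages and their depth and library composition. The genes most like each receptor over these libraries, out of 5635 at a mean of 10 FPKM or more, were 2810417H13Rik (r = 0.991) and Pdcd1 (0.989), an inhibitory receptor gene, for Ccr4. For Ccr9 they were Cdc6 (0.982), a DNA replication gene, and 1700097N02Rik (0.977). For Ccr2 they were the costimulatory receptor gene Icos (0.900) and Nrp1 (0.871). For Cxcr3 they were Samd3 (0.962) and Gimap3 (0.957), for Ccr8 Btg1 (0.940) and Btg2 (0.934), both antiproliferative genes, and for Cxcr6 Ifi203 (0.939) and Ms4a4c (0.918). Ccr6 was most like Serpinb1a (0.966) and 5830411N06Rik (0.906), and Cxcr4 had the least close partners, Csrnp1 (0.886) and Tspyl1 (0.868).

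The cultured DN1eP-NKT cells carried a receptor set that did not equal that of any stage: 6 of 8 receptors differed from NKT-1, 5 from NKT-2 and 5 from NKT-3, where 21.7%, 20.6% and 26.2% of all genes were called. Against NKT-1, 3 were higher and 3 lower, where 10.2% and 11.5% of all genes were. Against NKT-2, 2 were higher and 3 lower, where 12.2% and 8.45% were. Against NKT-3, 2 were higher and 3 lower, where 17.6% and 8.55% were. Ccr2 was above and Cxcr4 below all 3 stages. All DN1eP-NKT libraries are in the higher-median set, so their values are set beside stage libraries of that set. These 3 comparisons share the DN1eP-NKT libraries. With quantile normalization the share of higher calls among all called genes fell to 47.05% from 59.02% against NKT-2 and to 47.06% from 67.35% against NKT-3 (56.52% with upper-quartile scaling), with no called receptor reversed.

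Ccr2 was at 182, 163, 194 and 194 FPKM in DN1eP-NKT, above each of the 18 thymic libraries (32.1 to 138). It was higher by 1.28 ± 0.24 than NKT-1, 0.75 ± 0.21 than NKT-2 and 1.95 ± 0.22 than NKT-3 (limma adjusted p = 0.000157, 0.0117 and 8.12e-08), and the second did not pass with no filter (adjusted p = 0.0638). Cxcr4 was at 7.14, 22.3, 19.1 and 21.2 FPKM, below the 9 higher-median thymic libraries (40.1 to 166), though close to the 7.29 to 21.7 of the lower-median ones. Its differences were -1.95 ± 0.46, -2.17 ± 0.42 and -2.70 ± 0.44 from NKT-1, NKT-2 and NKT-3 (adjusted p = 0.00297, 0.000363 and 3.90e-05). Without the set term these were -0.32, -1.02 and -1.34, and none passed. In the higher-median libraries alone the differences were -1.67, -2.12 and -2.95.

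Ccr9 was off in DN1eP-NKT, at 0.89, 0.18, 0.39 and 0.92 FPKM. NKT-3 libraries of the same set were at 1.01, 0.83 and 1.09, so 2 of the 4 cultured libraries lay within that range and 2 below it. DN1eP-NKT minus NKT-3 was -0.65 (95% interval -2.35 to 1.06, limma adjusted p = 0.624), and the differences from NKT-1 and NKT-2 were -6.31 ± 0.87 and -4.79 ± 0.78 (adjusted p = 1.02e-05 and 8.52e-05). Cxcr6 stood at 399, 382, 475 and 499.6 FPKM, above the higher-median libraries of NKT-1, NKT-2 and NKT-3 (124 to 351). It was higher by 1.63 ± 0.28 than NKT-1 and by 0.85 ± 0.26 than NKT-2 (adjusted p = 6.60e-05 and 0.0164). The latter was lost without DN1eP-NKT library 4 (adjusted p = 0.0567), with quantile normalization (0.77, adjusted p = 0.0788) and with no filter on low values (adjusted p = 0.0762), and without the set term Cxcr6 passed in neither (0.71 and 0.19). From NKT-3 it differed by 0.47 (-0.07 to 1.02, adjusted p = 0.212).

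Ccr8 and Cxcr3 of the cultured cells were below NKT-3 and overlapped an earlier stage, and Ccr4 lay between the stages. Ccr8 was at 33.7, 32.0, 28.0 and 35.1 FPKM, within the 24.9 to 55.0 of NKT-1 and NKT-2 in the same set and below the 121 to 146 of NKT-3. The difference from NKT-3 was -1.67 ± 0.26 (limma adjusted p = 8.92e-06), and those from NKT-1 and NKT-2 were -0.24 (95% interval -0.80 to 0.31) and -0.49 (-0.99 to 0.01), neither called. Cxcr3 was at 53.1, 72.9, 64.5 and 75.8 FPKM, overlapping NKT-2 (61.9 to 75.8) and below NKT-3 (141 to 157). The difference of Cxcr3 from NKT-2 was 0.15 (-0.49 to 0.78, adjusted p = 0.814), the difference from NKT-3 was -1.21 ± 0.32 (adjusted p = 0.00558), and that from NKT-1 was 1.03 ± 0.34 (adjusted p = 0.0287), which was lost in 6 of 9 fits without a single library, without the set term (0.55, adjusted p = 0.303) and with no filter (adjusted p = 0.113). Ccr4 was at 13.6, 20.7, 23.2 and 27.6 FPKM, above all NKT-3 libraries (4.53 to 5.81 in the same set) and below all NKT-1 and NKT-2 libraries of that set (67.1 to 131). Its differences were -2.48 ± 0.52, -1.97 ± 0.47 and 1.66 ± 0.49 from NKT-1, NKT-2 and NKT-3 (adjusted p = 0.000909, 0.00301 and 0.0134). Without the set term the first 2 were -1.58 and -1.33 and did not pass (adjusted p = 0.0782 and 0.144). Ccr6 was at 0.49, 0, 1.43 and 0 FPKM, and its differences from NKT-1, NKT-2 and NKT-3 had 95% intervals of -0.57 to 3.60, -3.23 to 0.54 and -1.19 to 2.74.

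**Figure D3:**
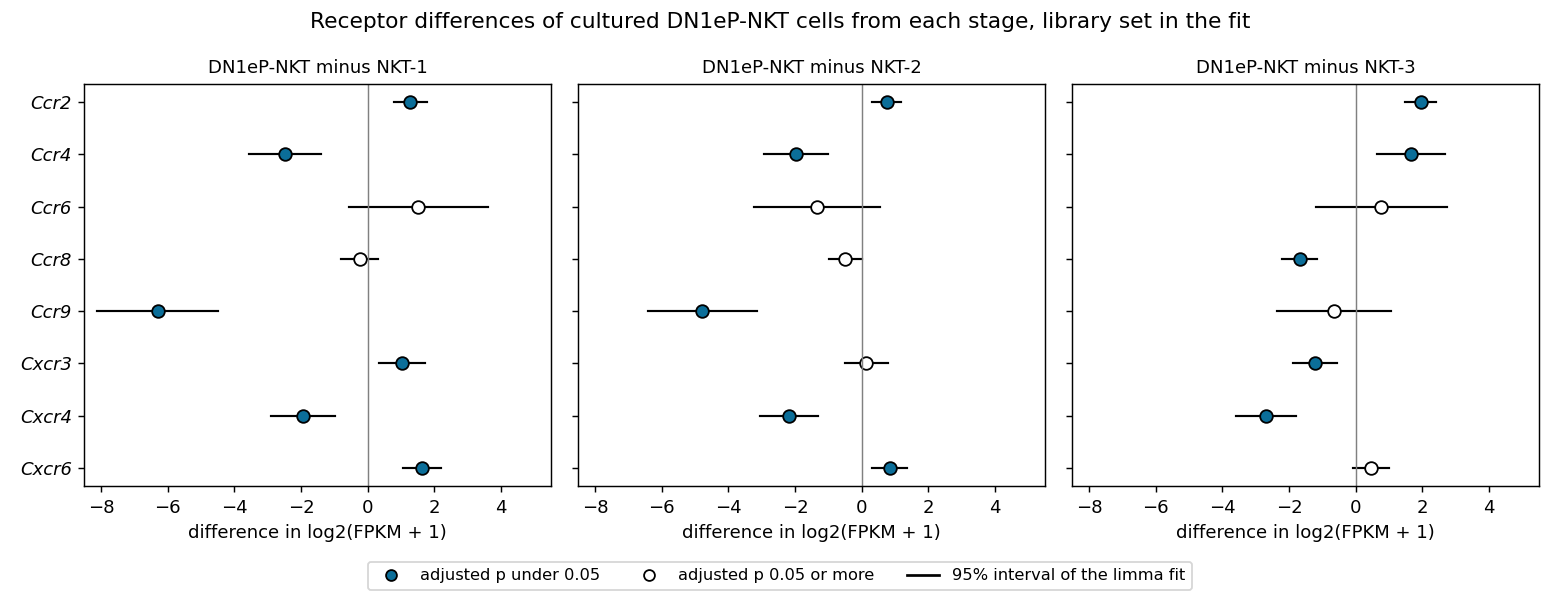
Points are the limma differences in log2(FPKM + 1) of DN1eP-NKT from each stage on the horizontal axis, with 95% intervals, filled where the adjusted p is under 0.05. No panel has all 8 receptors unfilled, and Ccr2 is to the right and Cxcr4 to the left in all 3.

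As a single measure, the Euclidean distance over the 8 receptors (log2(FPKM + 1)) was taken from each DN1eP-NKT library to the mean of each stage's higher-median libraries. It was 4.73 ± 0.41 (SD, n = 4) to NKT-3, 6.12 ± 0.36 to NKT-2 and 7.37 ± 0.29 to NKT-1, and all 4 libraries were nearest to NKT-3. For scale, the means of NKT-1 and NKT-2 lay 2.29 apart and those of NKT-2 and NKT-3 6.69 apart, and single stage libraries lay 0.61 to 3.88 from the mean of the others of their stage and set. The order rested on Ccr9: without it the distances were 4.70 ± 0.43 to NKT-3, 3.38 ± 0.66 to NKT-2 and 3.95 ± 0.49 to NKT-1, with all 4 libraries nearest to NKT-2. Leaving out any of the other 7 receptors kept NKT-3 nearest in all 4 libraries. The distances have no test.

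**Figure D4:**
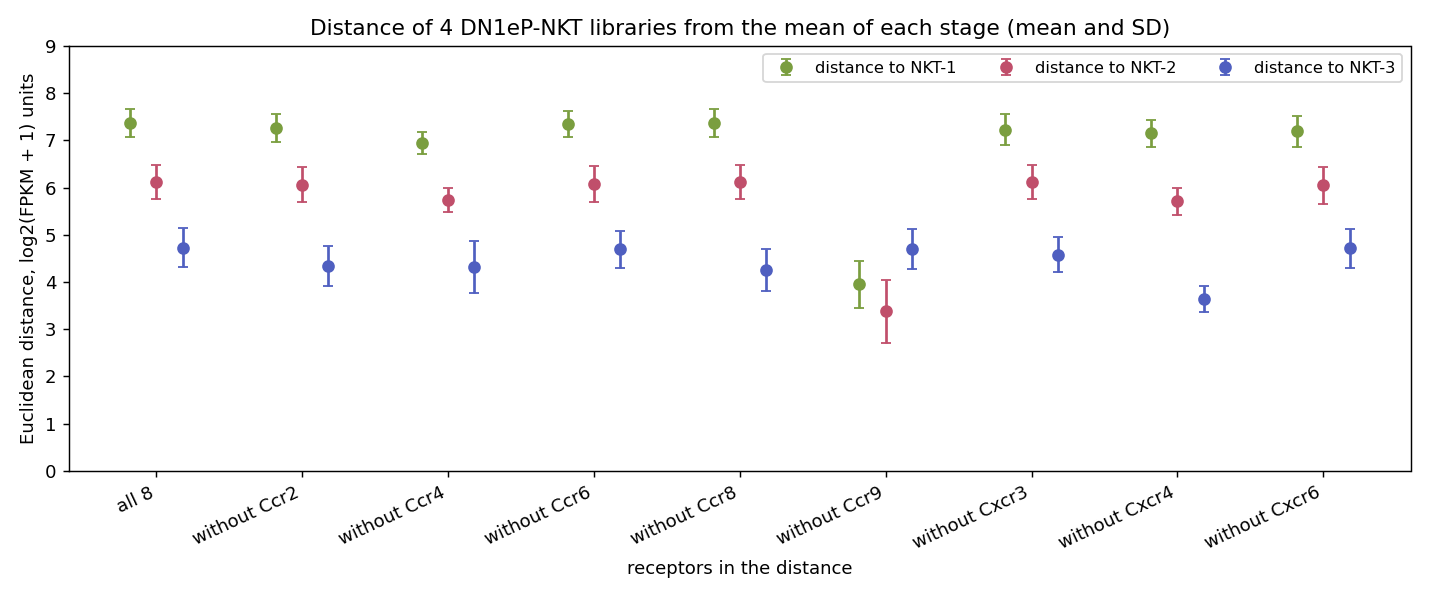
Points are the mean Euclidean distance of the 4 DN1eP-NKT libraries from each stage on the vertical axis, in log2(FPKM + 1) units, with SD bars, for all 8 receptors and with each left out in turn. NKT-3 is nearest throughout except without Ccr9, where NKT-2 is nearest at 3.38.

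Transcripts of stromal cells were higher in DN1eP-NKT than in thymic NKT cells. Of 10 fibroblast and stroma markers, 6 were at 1 FPKM or more in all 4 DN1eP-NKT libraries, summing to 34.7 to 274.4 FPKM against 0.11 to 2.75 in the thymic libraries, and Lum was at 0 in all 4. The 7 NKT and T cell markers (Cd3e, Zbtb16 and 5 others) summed to 1342 to 1757 FPKM in DN1eP-NKT against 1559 to 5515 in the thymic libraries. Of these 7, 5, 5 and 7 were lower and 1, 1 and 0 higher than in NKT-1, NKT-2 and NKT-3. Of all genes, 11.5%, 8.45% and 8.55% were lower and 10.2%, 12.2% and 17.6% higher. The CXCR4 ligand gene Cxcl12 was at 53.5, 125, 179 and 191 FPKM in DN1eP-NKT libraries 1 to 4 and at most 0.21 in any thymic library. Library 1 had the lowest stroma sum, the lowest Cxcl12 and, at 7.14 FPKM, the lowest Cxcr4. Of the 14 ligand genes of the 8 receptors, 7 were tested, and Cxcl12, Ccl1, Ccl7 and Ccl2 were higher than in each stage, where 10.2%, 12.2% and 17.6% of all genes were higher than NKT-1, NKT-2 and NKT-3. The median difference of the 7 was 1.90 from NKT-1, 1.89 from NKT-2 and 1.68 from NKT-3, beside -0.10, 0.02 and 0.09 over all tested genes. Ccl1, which binds CCR8, was at 34.0, 23.2, 48.4 and 15.2 FPKM. The source of these transcripts, and their part in the Ccr2 and Cxcr4 differences, was not tested.

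Among DN1eP libraries, library 1 went its own way: Ccr9 was at 1.93 FPKM there and at 136, 107 and 104 in libraries 2 to 4, and Ccr4 at 0.81 against 15.4, 17.9 and 18.8. Cxcr6 was at 2329 FPKM in library 1 and at 841, 829.3 and 655 in the others. Library 1 also held 381.7 FPKM of summed myeloid markers against 41.1 to 50.3 in the others. Most was Mpo (271) and Elane (87.1), with 5 of 11 markers at 1 FPKM or more. Its stroma (37.5 against 1.96 to 7.11) and T cell sums (5669 against 3905 to 4558) were also higher. Lower sums were those of mast cell and basophil (77.1 against 512.9 to 608.8), gamma-delta (65.55 against 228.3 to 296.4), dendritic (19.66 against 105.4 to 182.5), double-positive (8.01 against 24.94 to 27.1) and B cell markers (22.55 against 29.12 to 50.17). The part of these transcripts in its receptor levels was not tested. DN1eP were sorted on CXCR3, so their Cxcr3 level (423, 170.5, 123 and 140.0 FPKM) describes the gate. Ccr8 was at 167, 250.5, 269 and 248 FPKM, above all NKT-1, NKT-2 and NKT-3 libraries of the same set (55.2 to 154), and it was higher by 1.80 ± 0.26 than NKT-1 and 1.55 ± 0.25 than NKT-2 (limma adjusted p = 4.55e-06 and 3.35e-05). The difference of Ccr8 from NKT-3, 0.36, was not called (adjusted p = 0.327), nor was it in the lower-median libraries alone (0.75, adjusted p = 0.0693). Cxcr4 was at 12.4, 57.7, 52.9 and 64.4 FPKM, against 7.29 to 21.7 in thymic libraries of the same set. Libraries of that set were not alike in depth. DN1eP libraries 2 to 4 were of about 1.01 to 1.79 M fragments, and library 1 had no estimate. The thymic libraries with an estimate were of about 18.63 to 27.51 M. Group and depth therefore cannot be told apart within that set. Ccr6 was at 2.82, 24.6, 9.01 and 22.1 FPKM, all above the NKT-1 libraries. Against NKT-1, NKT-2 and NKT-3, 6, 4 and 4 of 8 receptors differed, where 39.6%, 36.3% and 22.8% of all genes were called. Cxcr3 is among those counted against NKT-1 (1.72) and NKT-2 (0.83), where it describes the gate and is no finding. Without library 1 the calls against NKT-1 were the same. Against NKT-2 that fit added Ccr2 (-0.59, adjusted p = 0.0224) and Ccr9 (1.70, adjusted p = 0.00361) and lost Cxcr3 (0.45, adjusted p = 0.226). Against NKT-3 it added Ccr6 (2.69, adjusted p = 0.0477) and Cxcr3 (-0.91, adjusted p = 0.0168). The share of higher calls among all called genes was 58.62% against NKT-2 and 74.59% against NKT-3, and 44.38% and 45.06% with upper-quartile or 48.56% and 49.80% with quantile scaling.

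After culture, DN1eP-NKT were lower than DN1eP in Ccr9, Cxcr4 and Ccr8 and higher in Ccr2, where 17% of all genes were called lower and 15.1% higher. Of the called genes 47.12% were higher, and 57.57% with upper-quartile scaling. The 2 groups never share a library set, so these values rest on a set term taken from thymic libraries. Ccr9 fell by 5.16 ± 1.01, and by 6.49 without DN1eP library 1. Without that library Ccr4 (-1.26, adjusted p = 0.00313) and Cxcr6 (0.72, adjusted p = 0.0292) were also called, but both signs depended on the set term. With all libraries and no set term they were 1.07 and -1.22 (limma adjusted p = 0.176 and 0.0632). In FPKM, every DN1eP library was above every DN1eP-NKT library for Cxcr6, and the 2 groups overlapped for Ccr4. Ccr8 fell by 2.04 ± 0.32 (limma adjusted p = 1.86e-05), from 234 ± 45.6 to 32.2 ± 3.07 FPKM (SD, n = 4). Cxcr4 fell by 3.96 ± 0.54 with the set term and was at -1.26 without it, not called (adjusted p = 0.254). DN1eP libraries held 77.1 to 608.8 FPKM of the 6 mast cell and basophil markers against 0 to 22.1 in DN1eP-NKT, and the part of those cells was not tested.

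Of 17 other chemokine receptor genes, 8 were tested, and from NKT-1 to NKT-3, 3 rose and 3 fell, where 10.4% and 27.4% of all genes did, with a median difference of -0.33 beside -0.17 over all tested genes. Ccr7, the receptor that guides thymocytes to the medulla, fell by 5.72 ± 0.58 (limma adjusted p = 6.78e-08), from 57.8 to 106 FPKM over the NKT-1 libraries to at most 1.92 in NKT-3. Ccr10 fell by 2.58 ± 0.26, and Ccrl2, an atypical receptor, rose by 1.91 ± 0.41. In DN1eP-NKT, Ccr7 stood at 2.58 to 4.65 FPKM, a difference of -4.065 ± 0.69 from NKT-1.

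Of 30 genes acting downstream of these receptors, all were tested, and 9 rose and 5 fell from NKT-1 to NKT-3, where 10.4% and 27.4% of all genes did, with a median difference of 0.13 beside -0.17 over all tested genes. Rgs1, which shortens signals of G-protein-coupled receptors, rose by 4.84 ± 0.59 (limma adjusted p = 1.17e-06), from 5.90 to 67.6 FPKM over NKT-1 libraries to 289.6 to 1070 in NKT-3. Rgs2 of the same family rose by 1.93 ± 0.37 and the G-protein subunit gene Gng2 by 1.70 ± 0.24. In DN1eP-NKT, 5 were higher and 8 lower than in NKT-1, where 10.2% and 11.5% of all genes were. Rgs10 was at 16.4 to 35.1 FPKM against 128 to 312 in thymic libraries, a difference of -3.24 ± 0.22 from NKT-1 (adjusted p = 3.97e-12). Rgs1 was higher than in NKT-1 by 2.69 ± 0.71 and its difference from NKT-3 was -2.15 ± 0.67, while Rgs2 differed from NKT-1 by -1.83 ± 0.44.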

How the data were processed

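RNA of 26 libraries of sorted or cultured mouse thymocytes was read as deposited FPKM per gene with lower and upper 95% bounds. The authors made these FPKM values with TopHat2 2.0.6 and Cufflinks 2.1.1 on mm9, per the submitters' processing notes. Raw reads were not used here.

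Rows of the same symbol were summed. The files name 23267 symbols, of which 23168 were kept; 86 are absent from some library and 13 have an estimate marked failed or capped. No 2 libraries held identical values. Many deposited intervals are off centre (64 of 208 receptor values lie outside their own), so only their widths are used. Depth, read from the steps between low FPKM values, could be estimated in 23 libraries and was about 1.01 to 2.65 M fragments in 13 and 12.24 to 27.51 M in 10. It covers counting error only and is approximate.

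The 11663 genes that reached 1 FPKM in 4 libraries or more were tested as log2(FPKM + 1), a pseudocount of 1, by limma 3.58.1 under R 4.3.3 (eBayes, robust, with a trend) in a fit of all libraries with 5 groups and library set, for 10 comparisons, with Benjamini-Hochberg adjustment at 0.05. Changes of low genes are understated on this scale. On simulated data with 200 changed genes among 11663, over the 10 comparisons recovery was 27% to 73% for 2-fold and 80% to 93% for 4-fold changes, with 4 to 12 false calls each. The simulated set effect was the same in every group, as the fit assumes. The false calls therefore do not cover a set effect that differs by group. This matters most for DN1eP-NKT minus DN1eP, which share no set. The simulated noise of a gene was normal, with the same spread in every library. Unequal depth and libraries with markers of other cells are therefore not covered either. Stage distances and on or off calls (10 and 1 FPKM) have no test. Tables and figures were made with Python 3.11.15, pandas and matplotlib.

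Alternatives were no set term, fits within a set, a replicate block, other filters, pseudocount and scalings, array weights, only the compared groups, keeping a symbol's highest row, and fits without some libraries. The receptors, gene lists and tests were chosen with earlier results of these data known, library sets included. Genes named besides the receptors are Cd44 and Klrb1c, up to 3 called members per list with the largest changes in a stage or culture comparison, and the 2 genes most like each receptor over 18 thymic libraries. Ccl2, 5830411N06Rik beside the markers, and the marker genes named were chosen after their values were seen. One gene that this rule picks is not reported here. Marker lists of stroma, B cells, erythroid, myeloid, mast, dendritic, double-positive, gamma-delta and T cells were summed per library.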

Additional observations from a re-analysis of the deposited data

Results flagged for a closer look

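Each of 40 pairs of a receptor and a group was checked for a library far from the others of its group by Dixon's gap. For normally spread values chance meets its limit in about 1 group in 20. The gap was taken on FPKM without a log, and Ccr6 was at 0 in several libraries, so that rate need not hold here. The limit was met 5 times, each time by the highest library of a group. Ccr6 was at 101.7 FPKM in NKT-2 library 6, against 0 to 15.53 in the other 6, and at 5.499 in NKT-3 library 5, against 0 to 0.67. Ccr9 was at 3.72 FPKM in NKT-3 library 5, against 0.66 to 1.09. Cxcr3 was at 422.9 FPKM in DN1eP library 1, against 123.2 to 170.5, and Cxcr6 at 2329 against 654.9 to 840.6. The 2 thymic libraries also held the highest sums of the dendritic cell list in their stages (1861 and 420.5 FPKM). In both, only Cd74 and H2-Aa of its 6 genes reached 1 FPKM. DN1eP library 1 held the highest sum of the myeloid list in DN1eP (381.7 FPKM, against 41.1 to 50.3), mostly Mpo and Elane. The part of other cells in these values was not tested. Of 24 tests of a stage difference between the library sets, 0 passed limma's test. Of all genes, 0%, 0.403% and 0.506% did for NKT-2 minus NKT-1, NKT-3 minus NKT-2 and NKT-3 minus NKT-1. With so few calls over all genes, the count does not show that the sets agree. Ccr8, NKT-3 minus NKT-1, was 2.12 in higher-median and 0.85 in lower-median libraries (limma unadjusted p = 0.00455, adjusted p = 0.212).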

How the results depend on the processing

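Of the receptor calls along the stages, the falls of Ccr4 and Ccr9 and the rise of Cxcr3 at NKT-3 kept their direction in every alternative run, and only Ccr9, NKT-3 minus NKT-2 in lower-median libraries (-3.45, adjusted p = 0.194), was lost. The call of Ccr6 was lost in 8 alternatives besides those without a single library (adjusted p = 0.0519 to 0.583). Of the receptor differences that passed the test, a single one changed sign: Cxcr4, DN1eP minus NKT-3, was 1.27 (adjusted p = 0.0389) with the set term and -0.087 without it. Receptor calls that ended in at least 1 alternative, single libraries left out included, were 3 of 6 and 2 of 6 for NKT-3 minus NKT-2 and NKT-1, 4 of 6, 4 of 5 and 1 of 5 for DN1eP-NKT minus NKT-1, NKT-2 and NKT-3, 1 of 4 for DN1eP-NKT minus DN1eP, and 3 of 6, 3 of 4 and 4 of 4 for DN1eP minus NKT-1, NKT-2 and NKT-3. Counts over all genes moved by over 1.5 times in these cases, where the cause was not tested. For NKT-2 minus NKT-1, 93 genes were called, and 27 with no set term, 26 and 15 in the higher-median and lower-median sets alone, 28 with no filter and 49 with only the compared groups. For NKT-3 minus NKT-2, 3438 were called, and 1460 with no set term, 830 in the lower-median set and 2129 with no filter. For NKT-3 minus NKT-1, 4404 were called, and 2180 and 2155 with no set term and in the lower-median set. For DN1eP-NKT minus NKT-3, array weights gave 4606 against 3054, and for DN1eP-NKT minus DN1eP no set term gave 6136 against 3748. For DN1eP minus NKT-1, 4624 were called, and 2716 and 2686 with no set term and only the compared groups. For DN1eP minus NKT-2, 4232 were called, and 2512 and 2362 in the lower-median set and with only the compared groups. For DN1eP minus NKT-3, 2656 were called, and 1681, 1545, 1717 and 1586 with no set term, in the lower-median set, with no filter and with only the compared groups. Without single libraries the counts ran from 60 to 92 (NKT-2 minus NKT-1), 2945 to 3572 (NKT-3 minus NKT-2), 3950 to 4314 (NKT-3 minus NKT-1), 2146 to 2420, 1991 to 2513 and 2485 to 3020 (DN1eP-NKT minus NKT-1, NKT-2 and NKT-3), 3202 to 4403 (DN1eP-NKT minus DN1eP), and 4036 to 4988, 3620 to 4649 and 1894 to 3519 (DN1eP minus NKT-1, NKT-2 and NKT-3). Where a library left its arm with fewer samples, the shared spread of the fit was used.

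No clear pairing of the libraries by replicate number was seen. Over 44 same-numbered pairs the deviations correlated at -0.38 to 0.49 (median 0.03, against 0.006 for other numbers). Of 26 libraries, 7 correlated best with their own number. Such correlations can miss a weak shared effect, so a pairing was not excluded. With the replicate block, 41 genes were called for NKT-2 minus NKT-1, 2385 for DN1eP-NKT minus DN1eP, 2163 for DN1eP minus NKT-2 and 1281 for DN1eP minus NKT-3, and the other counts stayed within 1.5 times.

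Scaling moved the median of all genes by over 0.1 for NKT-3 minus NKT-1 (-0.17, to -0.03 with upper-quartile and 0.00 with quantile scaling), NKT-2 minus NKT-1 (-0.12 to -0.02, quantile), DN1eP-NKT minus NKT-3 (0.09 to -0.07, quantile), DN1eP-NKT minus DN1eP (-0.05 to 0.09, upper-quartile), DN1eP minus NKT-2 (0.08 to -0.07 and -0.03) and DN1eP minus NKT-3 (0.14 to -0.08 and -0.05). NKT-3 stayed nearest to DN1eP-NKT with a pseudocount of 0.1 (5.26) and without each library (4.55 to 4.87). With on at 5 and off under 2 FPKM, 34 of 40 calls were the same, and 37 were when library 6 of NKT-2 and library 5 of NKT-3 were dropped. In the shallow libraries with Ccr6 at 0, a level under 0.93 to 2.09 FPKM (3 fragments) was not detectable.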
